A study of Gossypium barbadense with 48 samples.

Results

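The genes described here are 150 genes of developing cotton fiber whose mRNA peaked at 15 to 20 days post anthesis (DPA). They were chosen from the 69337 genes with deposited values in 3 steps. The mean level of each gene was taken per cultivar and day in FPKM, fragments divided by the gene's length and the library's depth. A gene was eligible if its highest day was 15 or 20 DPA in both cultivars and that mean reached at least 10 FPKM in both, which 1573 genes met. The score was the mean log2(FPKM + 1) of 15 and 20 DPA minus that of the other 6 days, averaged over cultivars, and the 150 highest scores were kept. The stage pattern was therefore used to choose the genes and is given below as a description only. The scores ran from 6.51 to 2.76 log2 units. The last genes inside the limit were Gbar_D07G017110 (2.763) and Gbar_D07G021040 (2.760), and the first genes outside it were Gbar_D10G009230 (2.759) and Gbar_A12G008730 (2.750).

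The RNA came from *Gossypium barbadense* cultivars PimaS-7 and 5917, the parents of a recombinant inbred population used to map fiber strength. The labels name no treatment. Each cultivar was sampled every 5 days between 0 and 35 DPA, on 8 days with 3 libraries each and 48 libraries in all, and the 0 DPA samples were ovules while the later ones were fibers. The sources speak of 3 biological replicates and do not say whether they came from separate plants, so the p-values measure the spread between these libraries, which may be technical.

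A cotton fiber is a single cell that grows out of the seed coat epidermis. It first lengthens behind a thin primary wall, then passes through a transition in which elongation slows, and then lays down a thick secondary wall that is almost pure cellulose. How early and how fast this transition runs is known to bear on fiber length and strength. The peak of the genes described here lies around that transition. In bulk RNA, fewer cells of a type and less RNA per cell cannot be told apart.

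The libraries held between 28222056 and 43390702 counts, and the median library held 32756789. Of the 150 genes, 80 (53.3%) belonged to the A subgenome, 66 (44%) to the D subgenome and 1 to a scaffold, and 3 (2%) were new genes of the assembly. Among all 69337 genes the shares were 43.1% for A, 45.01% for D and 11.1% for new genes. Chromosomes A03 and A05 held 12 members each and D05 held 11. These were 0.581% of the 2064 genes of A03, 0.308% of the 3892 of A05 and 0.302% of the 3640 of D05. In 4 cases a pair of members were neighbours on a chromosome, namely Gbar_A11G015780 with Gbar_A11G015790, Gbar_D04G017890 with Gbar_D04G017900, Gbar_D05G005080 with Gbar_D05G005090, and Gbar_D09G022330 with Gbar_D09G022350. Homoeologous copies in both subgenomes, and neighbouring copies, can share reads, and the rule by which such reads were counted is not given in the sources used here.

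Gene names were held for 1712 genes, all from intervals on chromosomes D03, D08 and D11 of the Pima 3-79 genome HAU v2.0. Only 1 member, HSP83A, carried a name, and all others are given by ID without a function.

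The median member was nearly silent in ovules, climbed between 5 and 15 DPA, stayed level over 15 and 20 DPA and then declined, while 15 members in each cultivar were already at 10 FPKM or more in ovules, and 45 in PimaS-7 and 53 in 5917 at 5 DPA. In PimaS-7 the median member had 0.522 FPKM in ovules, 2.37 FPKM in fibers of 5 DPA and 16.8 FPKM in those of 10 DPA. It then stood at 54.6 FPKM on day 15 and 55.6 FPKM on day 20, and declined to 15.1 FPKM by 25 DPA, 3.90 FPKM by 30 DPA and 1.14 FPKM by 35 DPA. In 5917 the median member had 0.555 FPKM in ovules, 3.71 FPKM in fibers of 5 DPA and 20.2 FPKM in those of 10 DPA. It then stood at 69.2 FPKM on day 15 and 70.6 FPKM on day 20, and declined to 5.32 FPKM by 25 DPA, 3.85 FPKM by 30 DPA and 1.78 FPKM by 35 DPA. As a ratio, the medians of the cultivars lay farthest apart at 25 DPA. At 0 DPA, 88 members were below a mean of 1 FPKM in PimaS-7 and 90 in 5917, and at 35 DPA 73 were in PimaS-7 and 51 in 5917.

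**Figure D1:**
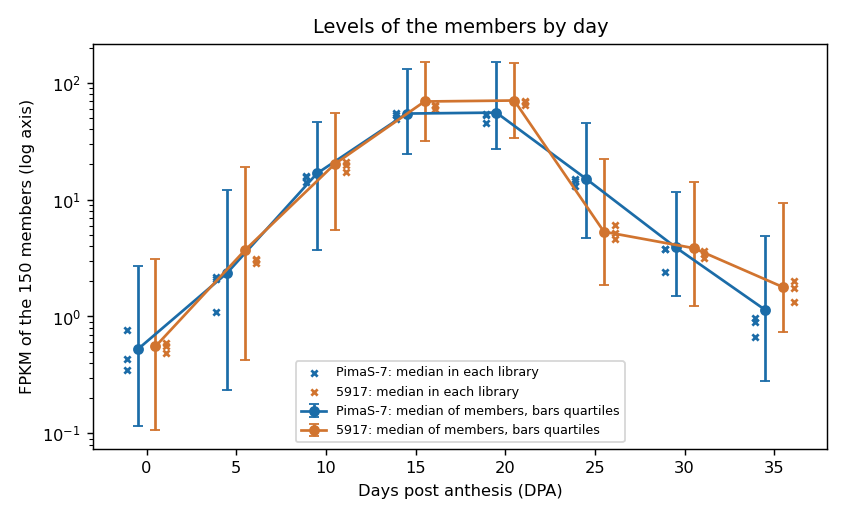
Level of the 150 genes in FPKM (log axis) against days post anthesis in PimaS-7 and 5917, with circles for the median of the genes' group means, bars for the quartiles, and crosses for the median in each library. The medians lie farthest apart at 25 DPA (15.1 FPKM in PimaS-7 and 5.32 in 5917) and are in the opposite order at 35 DPA (1.14 FPKM in PimaS-7 and 1.78 in 5917).

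The same course was seen in the share of all counts that fell on the members. At 15 DPA it was 4.66 to 4.98% in the PimaS-7 libraries and 5.35 to 5.70% in the 5917 libraries, and at 20 DPA 4.14 to 4.90% in PimaS-7 against 5.05 to 5.85% in 5917. By 25 DPA it was 2.02 to 2.49% in PimaS-7 against 0.932 to 1.31% in 5917. At 35 DPA it was 0.151 to 0.249% in PimaS-7 against 0.592 to 0.722% in 5917. At each of these 4 days the libraries of the cultivars did not overlap, and PimaS-7 was the lower cultivar at 15, 20 and 35 DPA and the higher one at 25 DPA. PimaS-7 was also lower without overlap at 30 DPA, at 0.606 to 0.653% against 0.866 to 1.13% in 5917. The shares of the cultivars overlapped at 5 and 10 DPA. At 0 DPA the shares overlapped, at 0.103 to 0.122% in PimaS-7 against 0.109 to 0.127% in 5917. There, PimaS-7 replicate 2 listed 11 members at 0 FPKM, against 35 and 36 in replicates 1 and 3.

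The peak day, taken as the day of the highest mean, differed between cultivars for most members. It was 15 DPA in PimaS-7 and 20 DPA in 5917 for 61 members, and 20 DPA in PimaS-7 and 15 DPA in 5917 for 48. The peak was at 15 DPA in both for 20 members and at 20 DPA in both for 21. In the edgeR comparison of 20 against 15 DPA given below, 23 members were called in PimaS-7 and 1 in 5917. A call needed a log2 fold change of at least 1, so these counts do not test the order of the days. At an unadjusted p of 0.05 in edgeR, 44 members were higher and 33 lower at 20 DPA in PimaS-7. In 5917 21 were higher and 24 lower. Among all genes 11175 of 46299 tested reached that p in PimaS-7 and 4696 of 43805 in 5917. For members that did not reach it the order of these days was not settled. The median coefficient of variation between the 3 libraries was 11.3% in PimaS-7 and 6.503% in 5917 at 15 DPA, and 13.4% in PimaS-7 and 8.95% in 5917 at 20 DPA. It was larger at low levels, at 50.8% in PimaS-7 and 35.9% in 5917 at 35 DPA.

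**Figure D2:**
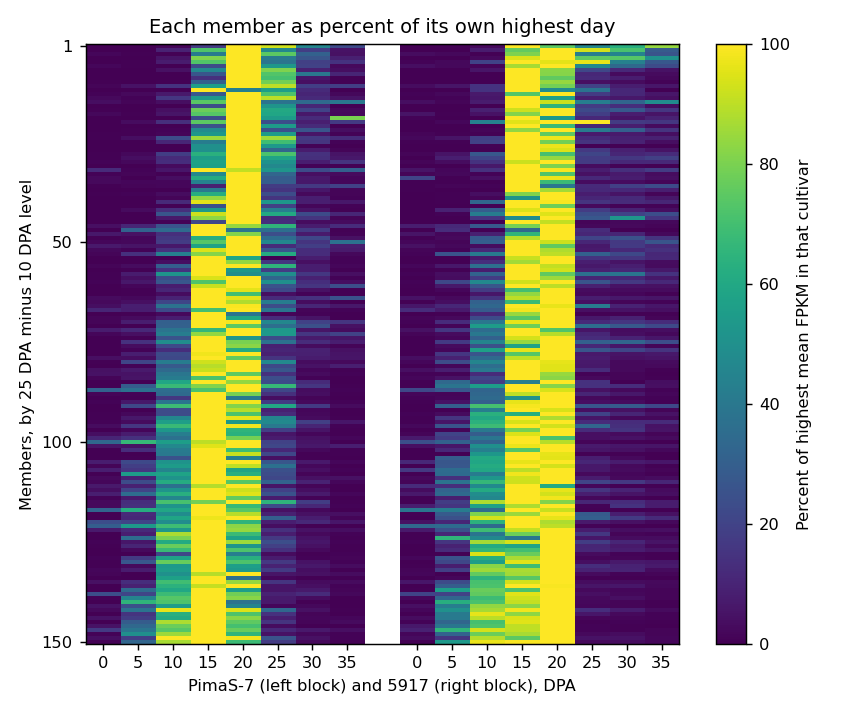
Each of the 150 genes as a row, with its mean FPKM per day as percent of its own highest day in PimaS-7 (left block) and 5917 (right block), ordered by the level at 25 DPA minus that at 10 DPA. The bright columns at 15 and 20 DPA were fixed by the choice of genes, and the 25 DPA column is brighter in PimaS-7 (median 23.4%) than in 5917 (median 8.51%).

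By the peak mean averaged over both cultivars, the highest levels belonged to Gbar_D10G012030, Gbar_A08G019480 and Gbar_D01G000190. Gbar_D10G012030 averaged 5871 ± 456 FPKM in PimaS-7 and 7034 ± 399 FPKM in 5917 at 15 DPA (SD, n = 3 each). It was already at 4021 ± 213 FPKM in PimaS-7 and 5034 ± 204 FPKM in 5917 at 10 DPA. Gbar_A08G019480 had 1185, 1319 and 1336 FPKM in PimaS-7 at 20 DPA, against 1876, 1746 and 1806 FPKM in 5917. Gbar_D01G000190 had 1128, 1008 and 1092 FPKM in PimaS-7 at 15 DPA, against 1336, 1381 and 1346 FPKM in 5917. In these 3 genes the PimaS-7 libraries lay below those of 5917 on the days named.

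The highest scores belonged to genes that were close to 0 at 0 and 5 DPA. Gbar_A06G003980 had no reads in any 5 DPA library and 0.139, 0.222 and 0.397 FPKM in PimaS-7 and 1.47, 1.34 and 0.781 FPKM in 5917 at 10 DPA. At 15 DPA it had 97.3, 139.9 and 151 FPKM in PimaS-7 and 256, 250.5 and 257 FPKM in 5917, and at 20 DPA 228, 285 and 261 FPKM in PimaS-7 and 248, 226 and 267 FPKM in 5917. The cultivars thus overlapped at 20 DPA and not at 15 DPA. Gbar_D06G004190, ranked 2 by score, had 109, 119 and 138 FPKM in PimaS-7 at 15 DPA, against 359, 352 and 352 FPKM in 5917. Gbar_A11G012860 had 121, 145 and 194 FPKM in PimaS-7 at 15 DPA, against 393, 379 and 377 FPKM in 5917. In both, every PimaS-7 library lay below every 5917 library that day.

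Some members switched between near 0 and high levels among the 3 libraries of 1 group. In 19 of the 150 (12.7%) the libraries of a 15 or 20 DPA group spanned over 5-fold, against 23 of the 1423 other eligible genes (1.62%). Gbar_D02G021460, ranked 3 by score, had 1092, 920.2 and 0.571 FPKM in PimaS-7 at 15 DPA, from 16344, 14800 and 11 reads. At 20 DPA it had 867, 0 and 1.03 FPKM in PimaS-7 and 0.892, 714 and 508 FPKM in 5917. Gbar_A05G002980, ranked 4 by score, had 146, 0.119 and 198 FPKM in PimaS-7 at 20 DPA, against 438, 570.5 and 720.0 FPKM in 5917. Gbar_D05G003460, chosen here after its values were seen, had 0, 1121 and 1181 FPKM in PimaS-7 at 15 DPA. The low libraries were not the same for each gene, and each of the 12 libraries of these groups was the low one for 1 to 4 of the 19. A peak day and a mean of such a gene rest on single libraries, and the cause of the spread was not tested.

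**Figure D3:**
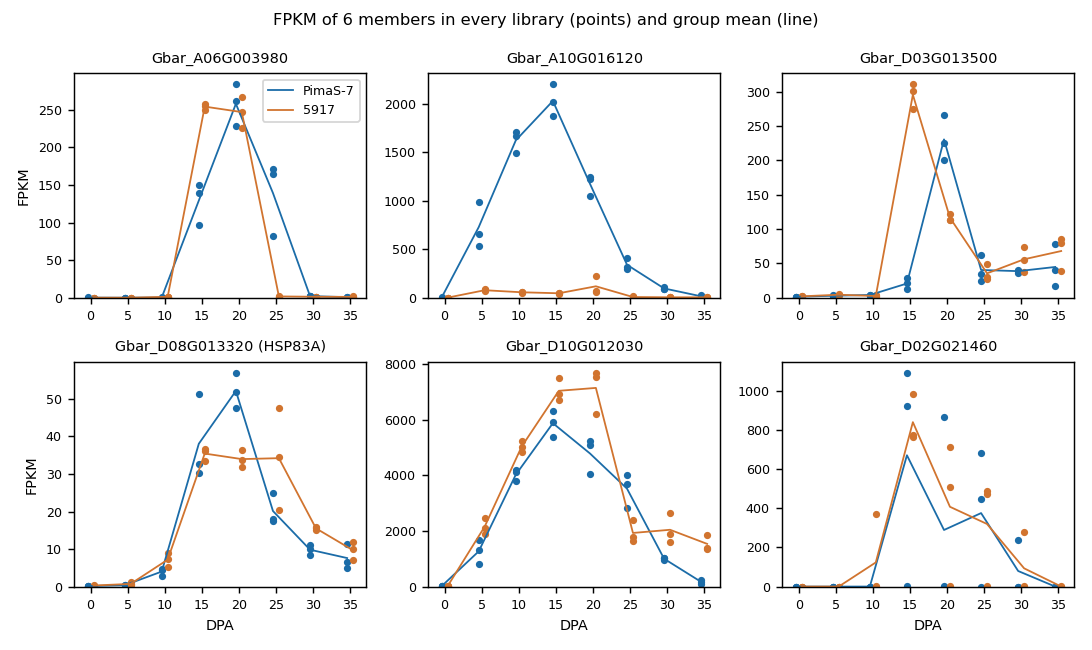
FPKM of 6 of the genes in every library (points) with group means (lines) against days post anthesis in PimaS-7 and 5917. Gbar_A06G003980 has a mean of 139 FPKM in PimaS-7 against 1.71 in 5917 at 25 DPA, Gbar_A10G016120 reaches a mean of 2031 FPKM in PimaS-7 against 45.7 in 5917 at 15 DPA, and Gbar_D02G021460 has libraries of 1 group both near 0 (0.571 FPKM) and high (1092 FPKM).

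The cultivars were compared at each day with edgeR's quasi-likelihood test on the counts of the 6 libraries of that day. A gene was called when its Benjamini-Hochberg adjusted p over all genes tested was at most 0.05 and its log2 fold change (PimaS-7 over 5917) was at least 1 in size. From 5 to 20 DPA most of the called members were lower in PimaS-7. At 15 DPA all 150 members passed the filter on low counts, and 5 were higher and 33 lower in PimaS-7, against 8.21% higher and 4.4% lower among all genes tested (12.6% in either direction). The median log2 fold change was -0.42 for the members and 0.04 for all genes. At 20 DPA 5 of 150 members were higher and 19 lower, against 6.33% and 2.58% (8.91% in all) of all genes, with a median of -0.44 for the members and 0.03 for all genes. A total of 6 members were lower at both days and 3 higher at both. Among the other eligible genes 4.43% were lower at 15 DPA and 2.53% at 20 DPA.

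Before the peak the direction was the same. At 10 DPA 142 members could be tested, of which 4 were higher and 30 lower in PimaS-7, against 3.09% and 1.99% (5.08% in all) of all genes, and the median was -0.54 for the members and 0.07 for all genes. At 5 DPA 126 could be tested, of which 1 was higher and 17 lower, against 1.87% and 3.02% (4.89% in all) of all genes, with medians of -0.81 for the members and 0.06 for all genes. The 5 DPA count of 18 fell to 8 without 5917 replicate 1, 8 without 5917 replicate 2 and 9 without PimaS-7 replicate 1. In ovules at 0 DPA 99 members could be tested, of which 3 were higher and 2 lower, against 1.24% and 1.26% (2.51% in all) of all genes. That count of 5 was 2 without 5917 replicate 2, 3 without PimaS-7 replicate 1, 3 without PimaS-7 replicate 2 and 1 without PimaS-7 replicate 3.

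The clearest single gene on this side was Gbar_A10G016120, which was higher in PimaS-7 from 5 to 20 DPA. At 15 DPA it had 2206, 1871 and 2015 FPKM in PimaS-7, against 45.4, 50.7 and 41.02 FPKM in 5917 (log2 fold change 5.54, SE 0.14, edgeR adjusted p = 2.9e-06). At 10 DPA it averaged 1624 ± 114 FPKM in PimaS-7 and 56.0 ± 3.68 FPKM in 5917 (4.94, SE 0.15, edgeR adjusted p = 2.84e-05). At 5 DPA the means were 728 ± 234 FPKM in PimaS-7 and 77.2 ± 10.2 FPKM in 5917 (SD, n = 3 each). Its groups did not overlap on any of these days. At 20 DPA it had 1052, 1230.1 and 1247 FPKM in PimaS-7, against 222, 57.9 and 73.5 FPKM in 5917. The 5917 peak at 20 DPA, by which the gene was eligible, rested on replicate 1 of that group, since the 5 DPA libraries of 5917 held 88.1, 75.5 and 68.0 FPKM. The log2 fold change at 20 DPA was 3.73 (SE 0.50, edgeR adjusted p = 0.00315), and 4.54 without that library.

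A pair of other members were higher in PimaS-7 at the peak. Gbar_D13G002370 averaged 109 ± 16.01 FPKM in PimaS-7 and 25.4 ± 1.98 FPKM in 5917 at 15 DPA (log2 fold change 1.78, SE 0.12, edgeR adjusted p = 0.000111). Gbar_A09G023880 averaged 64.4 ± 5.38 FPKM in PimaS-7 and 15.1 ± 1.14 FPKM in 5917 at 20 DPA (1.98, SE 0.13, edgeR adjusted p = 0.000155). Both had groups that did not overlap at 15 or at 20 DPA, and Gbar_D13G002370 was not called at 20 DPA (37.1, 39.95 and 64.9 FPKM in PimaS-7, against 22.2, 23.5 and 27.2 FPKM in 5917, edgeR adjusted p = 0.0594).

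Gbar_A07G001880 went the other way at every day from 10 to 25 DPA. At 20 DPA it had 10.9, 12.7 and 17.6 FPKM in PimaS-7, against 234, 192 and 202 FPKM in 5917 (log2 fold change -4.09, SE 0.23, edgeR adjusted p = 8.02e-05). The values were -4.14 at 10 DPA, -3.68 at 15 DPA and -3.12 at 25 DPA. In PimaS-7 this gene peaked at 20.1, 27.4 and 15.8 FPKM, below each of its 5917 libraries at 10, 15 and 20 DPA. At 5 DPA Gbar_A09G006550 had 0 reads in the 3 PimaS-7 libraries together, against 143 reads in 5917, and was at least 50.8-fold lower in PimaS-7 when 3 reads over the group are taken as the floor.

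At 25 DPA the direction turned. Of the 149 members tested, 62 were higher and 3 lower in PimaS-7, against 2.89% higher and 4.02% lower (6.91% in all) among all genes, and the median log2 fold change was 1.39 for the members and -0.06 for all genes. Among the other eligible genes 10.1% were higher and 0.141% lower. The count of 65 fell to 37 without PimaS-7 replicate 1 and to 39 without PimaS-7 replicate 3, and the spread between replicates was wide that day (median coefficient of variation 27.6% in PimaS-7 and 32.4% in 5917). Without the 19 genes of wide spread, 58 were higher and 2 lower.

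Gbar_A06G003980 differed most, with 165, 82.6 and 171 FPKM in PimaS-7 at 25 DPA, against 2.39, 1.35 and 1.39 FPKM in 5917 (log2 fold change 6.49, SE 0.43, edgeR adjusted p = 0.000981). Gbar_D11G031310 was low in both but still apart, at 3.24, 2.36 and 2.75 FPKM in PimaS-7, against 0.0693, 0.0943 and 0.0535 FPKM in 5917 (5.21, SE 0.37, edgeR adjusted p = 0.00112). On the other side Gbar_A03G013750 averaged 3.35 ± 0.382 FPKM in PimaS-7 and 20.1 ± 7.25 FPKM in 5917 (-2.28, SE 0.31, edgeR adjusted p = 0.00876).

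After 25 DPA most of the called members were again lower in PimaS-7. At 30 DPA 146 were tested, of which 5 were higher and 28 lower, against 5.35% and 2.47% (7.83% in all) of all genes, with medians of -0.79 for the members and 0.08 for all genes. That count of 33 was 16 without 5917 replicate 1, 3 without 5917 replicate 3, 4 without PimaS-7 replicate 2 and 17 without PimaS-7 replicate 3. At 35 DPA 136 were tested, of which 3 were higher and 65 lower, against 8.32% and 9.89% (18.2% in all) of all genes, with medians of -1.75 for the members and 0.15 for all genes. Among the other eligible genes 28.3% were lower. The count of 68 fell to 41 without 5917 replicate 2 and to 45 without PimaS-7 replicate 1. Of the 62 members higher in PimaS-7 at 25 DPA, 20 were lower in it at 35 DPA, 2 were higher and 40 were not called or not tested.

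At 35 DPA the most abundant member, Gbar_D10G012030, had 160.4, 245 and 97.8 FPKM in PimaS-7, against 1355, 1849 and 1400.2 FPKM in 5917. Gbar_D10G009280 had 3 reads over the PimaS-7 libraries and 113 over those of 5917, a ratio of 42.5 with a counting interval (95%) of 14.2 to 209. Gbar_D07G017110 and Gbar_A05G027390 were among the 3 members that were higher in PimaS-7. Gbar_D07G017110 had 4.44, 4.19 and 6.33 FPKM in PimaS-7, against 0.587, 0.634 and 0.304 FPKM in 5917 (2.70, SE 0.37, edgeR adjusted p = 0.00617). Gbar_A05G027390 averaged 46.5 ± 15.6 FPKM in PimaS-7 and 8.21 ± 1.85 FPKM in 5917 (1.98, SE 0.36, edgeR adjusted p = 0.0114). At 30 DPA Gbar_A10G016120 was still higher in PimaS-7, at 95.7 ± 12.8 FPKM against 4.01 ± 0.964 FPKM in 5917 (3.69, SE 0.35, edgeR adjusted p = 0.00194).

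**Figure D4:**
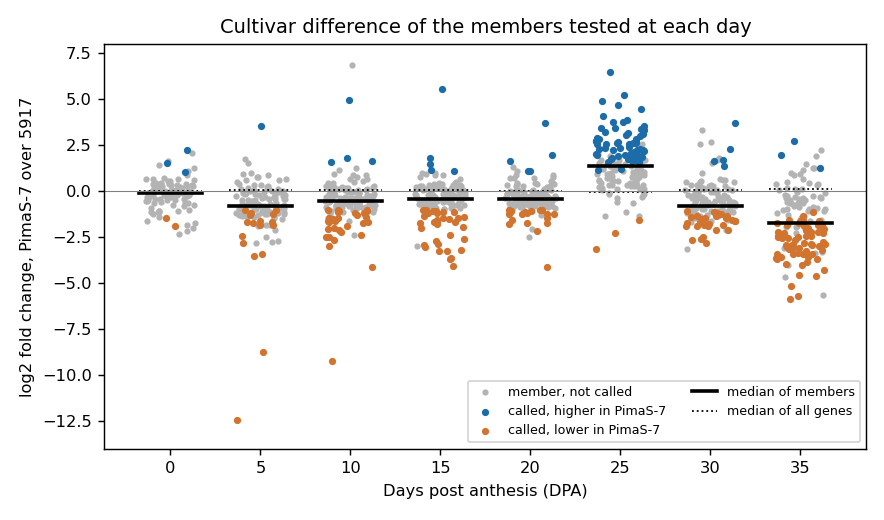
Log2 fold change (PimaS-7 over 5917) of each member tested at each day, with called members in color, the members' median as a solid bar and the median of all genes tested as a dotted bar. The members' median is below 0 from 5 to 20 DPA and at 30 and 35 DPA, while at 25 DPA it is 1.39 and 62 members were called higher in PimaS-7.

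The step over the end of the peak was tested directly, as the difference between 25 and 20 DPA in PimaS-7 minus that in 5917, on 12 libraries. At 25 DPA the median member held 27.01% of its 20 DPA level in PimaS-7 (quartiles 16.5 and 49.8%) and 9.70% in 5917 (4.10 and 17.6%), and 133 of the 150 held more in PimaS-7. The interaction was higher in PimaS-7 for 88 members and lower for 0, against 5.17% higher and 8.49% lower (13.7% in all) among all genes. Of the lower direction, 2 members reached an unadjusted p of 0.05 in edgeR, and DESeq2 and limma each called 1. The median was 1.81 for the members and -0.10 for all genes. The other eligible genes leaned the same way, with a median of 0.68, 22.3% higher and 0 lower. The percentage of the 20 DPA level held at 25 DPA was not computed for genes other than the members. This interaction shares the 25 and 20 DPA libraries with the cultivar comparisons of those days. Without the 19 genes of wide spread, 83 were higher and 0 lower.

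The interaction of Gbar_A06G003980 was 6.56 (SE 0.42, edgeR adjusted p = 7.37e-05). Gbar_D11G031310 had 9.14, 13.3 and 13.3 FPKM at 20 DPA in PimaS-7 and 19.1, 12.4 and 17.9 FPKM in 5917, and its interaction was 5.83 (SE 0.42, edgeR adjusted p = 9.76e-05). Both calls held with each of the 12 libraries left out. The highest scoring D subgenome gene, Gbar_D06G004190, had 100.3, 107 and 94.4 FPKM in PimaS-7 at 25 DPA, against 12.2, 14.3 and 10.8 FPKM in 5917, although 5917 had been the higher cultivar at 20 DPA (200.2, 226 and 221 FPKM in PimaS-7, against 314, 273 and 267 FPKM in 5917).

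**Figure D5:**
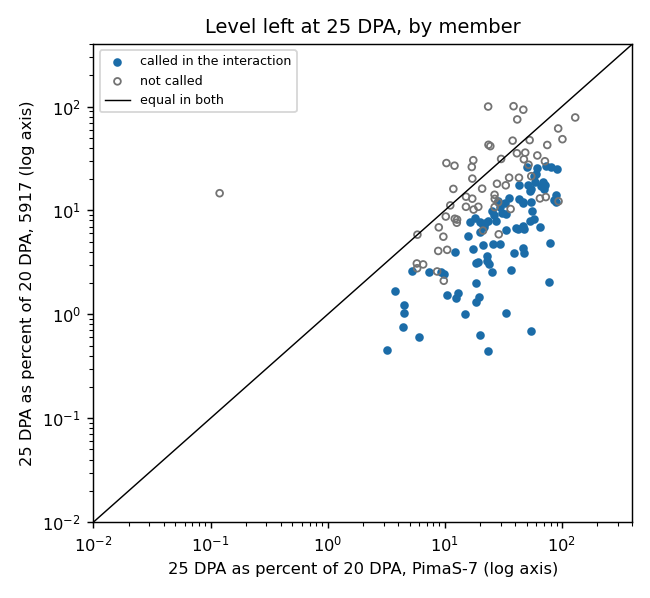
The 25 DPA level of each gene as percent of its 20 DPA level, in PimaS-7 (horizontal, log axis) against 5917 (vertical, log axis), with the line of equal share and filled points for the 88 genes called in the interaction. Of the 150 genes, 133 lie below the line, where more was left in PimaS-7.

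Marker genes were summed per library beside this result, from the lists of names held. The list headed secondary wall has 11 genes, and by its words it holds not only MYB86, KNAT7 and TBL43 but also CSI1, CSLD3, 4 CSLE6 genes, and CESA3 and CESA6, cellulose synthases known from primary walls in Arabidopsis. CESA3 was itself eligible, with its highest means at 20 DPA in PimaS-7 and 15 DPA in 5917. At 25 DPA this list summed to 402 to 465 FPKM in PimaS-7 and 198 to 249.7 FPKM in 5917, with 2 of 8 tested higher in PimaS-7. The list headed dividing cells has 15 genes, picked by words in their names. Beside cyclins and histone H2A genes it holds CDKC-1, CDKF-4, CDC5, Cdc123 homologs and KRP3, a cyclin-dependent kinase inhibitor. How far these genes mark dividing cells was not tested. The list summed to 259 to 266 FPKM in PimaS-7 and 165 to 200.4 FPKM in 5917. Its genes mostly lay the other way, with 2 of 13 tested called lower, no call in the other direction and a median log2 fold change of -0.41. The 5 genes of photosynthetic tissue summed to 11.8 to 18.8 FPKM in PimaS-7 and 28.3 to 42.9 FPKM in 5917, and none of the 3 tested was called by edgeR. The 4 ovule, seed and embryo genes summed to 0.353 to 1.28 FPKM in PimaS-7 and 0.376 to 2.47 FPKM in 5917.

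On other days the marker sums also differed, in both directions, and only some of these differences are printed. Among those not printed, the photosynthetic genes were higher in PimaS-7 at 15 DPA and the list headed secondary wall was lower in it at 5 DPA. The list headed secondary wall summed to 92.8 to 107 FPKM in PimaS-7 against 155 to 157 FPKM in 5917 at 10 DPA (2 of 8 lower), to 136 to 143 FPKM in PimaS-7 against 162 to 179.7 FPKM in 5917 at 15 DPA (3 of 9 lower, 1 higher), and to 141 to 188 FPKM in PimaS-7 against 219 to 245 FPKM in 5917 at 35 DPA (2 of 9 lower, 1 higher). The list headed dividing cells overlapped at 10 DPA, and summed to 175 to 208 FPKM in PimaS-7 against 264 to 285 FPKM in 5917 at 15 DPA (1 of 12 lower, 1 higher) and to 102 to 141 FPKM in PimaS-7 against 152 to 167 FPKM in 5917 at 35 DPA (3 of 11 lower). The photosynthetic genes summed to 11.96 to 19.5 FPKM in PimaS-7 against 25.9 to 31.7 FPKM in 5917 at 35 DPA (1 of 3 lower). The ovule, seed and embryo genes summed to 4.10 to 4.25 FPKM in PimaS-7 against 1.01 to 1.25 FPKM in 5917 at 35 DPA, where the 1 gene tested was higher. The part of these genes in the members' differences was not tested.

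Within the peak, the level at 20 DPA was set against that at 15 DPA in each cultivar. In PimaS-7 16 of 150 members were higher at 20 DPA and 7 lower, against 2.94% and 2.7% (5.65% in all) of all genes. In 5917 no member was higher and 1 was lower, against 0.164% and 0.21% (0.374% in all) of all genes by edgeR. In 5917 21 members reached an unadjusted p of 0.05 as higher and 24 as lower, DESeq2 called 1 higher and 1 lower, and limma 0 higher and 1 lower. Without 5917 20 DPA replicate 1 or replicate 2 the edgeR count was 2. The difference between 20 and 15 DPA in PimaS-7 minus that in 5917 was called for 35 members, 25 higher and 10 lower, against 3.42% and 3.35% (6.77% in all) of all genes. In a joint fit of the 48 libraries it was called for 13, 11 higher and 2 lower. As the peak day took part in choosing these genes, the split by peak day is a description. Of the 25, 23 peaked at 20 DPA in PimaS-7 and at 15 DPA in 5917, and of the 10, 9 had the opposite order.

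Gbar_D03G013500 showed this shift most. In PimaS-7 it had 225, 200.4 and 266 FPKM at 20 DPA, against 12.6, 20.9 and 28.5 FPKM at 15 DPA (log2 fold change 3.50, SE 0.29, edgeR adjusted p = 0.00115). In 5917 it had 114, 113 and 122 FPKM at 20 DPA, against 301, 274 and 311 FPKM at 15 DPA (-1.39, SE 0.09, edgeR adjusted p = 0.00326). Every 20 DPA library was above every 15 DPA library in PimaS-7 and below in 5917, and the interaction was 4.91 (SE 0.33, edgeR adjusted p = 9.49e-06). At 15 DPA the gene was lower in PimaS-7 by 4.05 log2 units (log2 fold change -4.05, SE 0.28, edgeR adjusted p = 0.000113).

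Gbar_A03G016920 was likewise late in PimaS-7, at 40.5, 39.7 and 33.4 FPKM at 20 DPA, against 2.84, 5.60 and 7.45 FPKM at 15 DPA. In 5917 it had 41.2, 36.6 and 50.4 FPKM at 20 DPA, against 57.2, 57.1 and 55.5 FPKM at 15 DPA, and its interaction was 3.32 (SE 0.37, edgeR adjusted p = 0.000175). Gbar_A04G013250 had the opposite order, with 23.2, 28.9 and 29.4 FPKM at 20 DPA against 65.3, 75.4 and 62.1 FPKM at 15 DPA in PimaS-7. In 5917 it had 57.9, 53.2 and 66.6 FPKM at 20 DPA, against 32.996, 29.1 and 26.9 FPKM at 15 DPA, and its interaction was -2.22 (SE 0.20, edgeR adjusted p = 4.93e-05). Gbar_A13G001180 averaged 13.3 ± 3.01 FPKM at 20 DPA and 36.3 ± 0.560 FPKM at 15 DPA in PimaS-7 (-1.42, SE 0.17, edgeR adjusted p = 0.00339), and its interaction was -1.78 (SE 0.20, edgeR adjusted p = 0.000177). Its 5917 means were 22.6 ± 0.692 FPKM at 20 DPA and 16.7 ± 1.02 FPKM at 15 DPA.

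The members' shoulders were compared as 25 against 10 DPA. In PimaS-7 148 members were tested, of which 63 were higher at 25 DPA and 33 lower, against 15.9% and 19.3% (35.2% in all) of all genes, with medians of 0.56 for the members and -0.12 for all genes. In 5917 150 were tested, of which 29 were higher and 75 lower, against 15.8% and 12.7% (28.4% in all) of all genes, with medians of -1.39 for the members and 0.03 for all genes. By limma on log2(FPKM + 1) the PimaS-7 counts were 47 higher and 51 lower, with a median of -0.19 for the members and -0.51 for all genes. All 29 members that were higher in 5917 were also higher in PimaS-7. A total of 31 members were lower in both, and 8 were higher in PimaS-7 and lower in 5917.

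The members held both genes with an early and genes with a late shoulder. Of the 48 that peaked at 20 DPA in PimaS-7 and 15 DPA in 5917, 37 were higher at 25 than at 10 DPA in PimaS-7 and 2 lower, and 20 were higher and 14 lower in 5917. Of the 61 with the opposite order, 60 were tested in PimaS-7, where 6 were higher and 26 lower, and in 5917 42 were lower. Gbar_D01G004910 belonged to the late shoulder, with 0 reads in every 10 DPA library of both cultivars. At 25 DPA it had 11.1, 40.7 and 13.1 FPKM in PimaS-7, at least 1283-fold above 10 DPA, and 8.26, 10.2 and 8.92 FPKM in 5917, at least 484-fold above (floor of 3 reads over the group). Gbar_D01G004940 had the same form, at least 837-fold higher in PimaS-7 and at least 480.2-fold higher in 5917. On the early shoulder, Gbar_A13G001180 averaged 0.591 ± 0.379 FPKM at 25 DPA and 20.6 ± 0.672 FPKM at 10 DPA in PimaS-7 (log2 fold change -4.35, SE 0.51, edgeR adjusted p = 0.000538). Gbar_D11G031310 averaged 0.0724 ± 0.0205 FPKM at 25 DPA and 9.05 ± 0.948 FPKM at 10 DPA in 5917 (-6.51, SE 0.34, edgeR adjusted p = 4.02e-05).

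The only member with a name was HSP83A (Gbar_D08G013320, D08, 41945131 to 41947828, minus strand, HAU v2.0), ranked 146 by score. Its protein belongs to the HSP90 family, chaperones that hold and fold signaling and other client proteins. In PimaS-7 HSP83A had 4.53, 4.77 and 2.70 FPKM on day 10, had 30.2, 32.6 and 51.3 FPKM on day 15 and 51.9, 57.0 and 47.5 FPKM on day 20, and 17.5, 24.8 and 18.04 FPKM on day 25. In 5917 it had 5.19, 9.07 and 7.24 FPKM on day 10, 36.1, 33.6 and 36.7 FPKM on day 15, 36.3, 31.9 and 33.6 FPKM on day 20, and 47.7, 34.5 and 20.5 FPKM on day 25. The 5917 libraries thus stayed level from 15 to 25 DPA with overlap, while those of PimaS-7 had their highest mean at 20 DPA (52.1 ± 4.72 FPKM), with 1 of the 15 DPA libraries inside the 20 DPA range. It was higher at 25 than at 10 DPA in both cultivars, by 3.04 in PimaS-7 (SE 0.29, edgeR adjusted p = 0.000201) and by 2.55 in 5917 (SE 0.40, edgeR adjusted p = 0.00214). Its step from 20 to 25 DPA missed the threshold of a difference between the cultivars in edgeR (interaction -1.12, edgeR adjusted p = 0.0953), while limma on log2(FPKM + 1) called it lower in PimaS-7 (-1.28, limma adjusted p = 0.0308).

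HSP83A was called lower in PimaS-7 at 10 DPA (-1.06, SE 0.28, edgeR adjusted p = 0.0459) and at 30 DPA (-1.11, SE 0.24, edgeR adjusted p = 0.0314), where it had 10.99, 10.1 and 8.39 FPKM in PimaS-7, against 15.6, 15.0 and 15.9 FPKM in 5917. The call at 10 DPA held only without 5917 replicate 1 (adjusted p = 0.0244 by edgeR) and was lost without any other of the 6 libraries (0.0548 to 0.127). The call at 30 DPA held without 5917 replicate 2 and without PimaS-7 replicate 1, and was lost without 5917 replicate 1 (0.0755), 5917 replicate 3 (0.111), PimaS-7 replicate 2 (0.139) and PimaS-7 replicate 3 (0.0844), all by edgeR.

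Of 19 named chaperone genes, 17 were expressed above 0.5 FPKM in at least 3 libraries and HSP83A alone was eligible. Between 25 and 10 DPA 5 of 18 tested were higher and 1 lower in PimaS-7, against 15.9% and 19.3% of all genes, and 6 of 17 were higher and 1 lower in 5917, against 15.8% and 12.7% of all genes. Others near the peak days were BAG6, a BAG family chaperone regulator, with its highest mean of 83.9 FPKM at 20 DPA in PimaS-7 and 51.9 FPKM at 25 DPA in 5917, and HSP18.2, a small heat shock protein, with 8.05 FPKM at 20 DPA in PimaS-7 and 22.3 FPKM at 25 DPA in 5917. The other 13 lists of named genes, from cellulose synthesis to receptor kinases, held no member. Since only 1 member carried a name at all, these lists cannot show which kinds of genes the members hold. Of these 13 lists 8 held an eligible gene, at most 4 in a list.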

How the data were processed

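Fiber RNA of PimaS-7 and 5917 (ovules at 0 DPA) was extracted with a plant RNA kit and sequenced on an Illumina HiSeq2500. The authors removed adapters, low-quality reads and reads rich in undetermined bases. They mapped the rest with HISAT2 onto the HAU v2.0 assembly of Pima 3-79, and StringTie served for assembly and quantification. For each of 69337 genes and 48 libraries they deposited a whole read count and an FPKM value. Neither the HISAT2 version nor the counting program is given in the sources used here.

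The members were chosen from the deposited FPKM. The 14 comparisons were fitted on the deposited counts with the quasi-likelihood test of edgeR 4.0.16 under R 4.3.3 (TMM scaling, filterByExpr at a count minimum of 10, tables read by data.table, version 1.17.8). Each cultivar or day comparison used its own 6 libraries and each interaction its 12. Genes were called at an adjusted p of at most 0.05 over all genes tested and a log2 fold change of at least 1 in size. Means, SDs, quartiles and figures were made with Python 3.11.15, numpy 2.4.6, pandas 2.3.3, scipy 1.17.1 and matplotlib 3.10.9. On simulated counts for the cultivar comparison at 20 DPA, 59% of the genes changed by 1.5 log2 units and 84% of those changed by 3 were recovered, with 22 false calls among 45197 genes. For 20 against 15 DPA in PimaS-7 the shares were 66% and 92%, with 15 false calls among 46299 genes. Intervals and floors of 3 reads cover counting error only.

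The members and the gene lists were chosen with earlier results of these data known. Members with a name are named. Others are given by ID for the 5 highest scores, the 3 highest levels and, per comparison, up to 2 higher and 2 lower called members with the largest change among those whose groups do not overlap, of which those that lost the call without single libraries are mostly not printed. Names came from the held parts of the study's lists of interval genes. The 14 lists, by words in those names, were fatty acid, wax and cutin, cellulose synthesis, wall loosening and pectin, arabinogalactan and fasciclin proteins, cytoskeleton, secondary wall regulators, transcription factors, turgor and transport, vesicle traffic, chaperones, 26S proteasome and ubiquitin, redox, hormones, and receptor kinases and calcium. The 4 marker lists were ovule, seed and embryo, photosynthetic tissue, dividing cells, and secondary wall.

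Alternatives were DESeq2 1.42.0, its size factors within edgeR, all genes with any count kept, a block for the replicate number, limma 3.58.1 (log2 of FPKM + 1, with 0.5 FPKM exceeded in 3 or more libraries), a joint fit of the 48 libraries, each library left out in turn, and other ways to score the members. Leaving out the genes of wide replicate spread was added after seeing the data. Sequences were not printed, as no reference with these gene IDs was used.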

Additional observations from a re-analysis of the deposited data

Results flagged for a closer look

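The step over the peak and the step out of it differed between the cultivars by a test of the difference itself. The difference between 20 and 15 DPA in PimaS-7 minus that in 5917 was called for 35 of 150 members by edgeR, against 6.77% of all genes, and for 13 in a joint fit of the 48 libraries. Among them Gbar_D03G013500 (4.91) and Gbar_A03G016920 (3.32) were later in PimaS-7, and Gbar_A04G013250 (-2.22) and Gbar_A13G001180 (-1.78) were earlier in PimaS-7, all on the log2 scale. The same test of 25 against 20 DPA was called for 88 of 150 members, against 13.7% of all genes. Gbar_A06G003980 (6.56) and Gbar_D11G031310 (5.83) had the highest values in PimaS-7 over 5917 among those printed.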

How the results depend on the processing

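No named value changed sign under the alternatives run on the 14 comparisons. Of 324 values of named genes and comparisons under other fits, 309 kept their call and 15 lost it. Of the 15, 8 were in the fit of all 48 libraries, 4 in limma and 3 with the replicate block. Most of these genes were picked as the largest called changes, so this share does not describe the other members. The 324 leave out the refits without single libraries, where some of these genes lost the call. The cultivar count at 0 DPA (5) was 9 by DESeq2, 3 by limma, 8 in the fit of all 48 libraries, 2 without the genes of wide spread, and 1 to 4 with each library left out. At 5 DPA (18) it was 37 by DESeq2, 32 in the fit of all libraries and 8 to 22 with each library left out. At 10 DPA (34) it was 22 by limma and 26 to 42 with a library left out. At 20 DPA (24) it was 13 in the fit of all libraries and 19 to 28 with a library left out. At 30 DPA (33) it was 54 by DESeq2, 17 by limma, 61 in the fit of all libraries and 3 to 40 with a library left out. With a library left out it was 33 to 41 at 15 DPA (38), 37 to 69 at 25 DPA (65) and 41 to 80 at 35 DPA (68). For 20 against 15 DPA the count in 5917 (1) was 2 by DESeq2, 2 with no filter, 0 in the fit of all libraries and 1 to 2 with a library left out, and in PimaS-7 (23) 17 to 26. For 25 against 10 DPA it was 89 to 107 in PimaS-7 (96) and 97 to 109 in 5917 (104). The interaction of 20 against 15 DPA (35) was 13 in the fit of all libraries and 31 to 38 with a library left out, and that of 25 against 20 DPA (88) was 64 to 99. The causes were not tested. By limma on the FPKM scale the median log2 fold change of all genes lay between -0.51 and 0.45 over the 14 comparisons, against -0.12 to 0.15 by edgeR, and the members' median for 25 against 10 DPA in PimaS-7 was -0.19 in place of 0.56.

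Same-numbered replicates mostly did not deviate together (r from -0.19 to 0.20 over 12 pairs of groups, median 0.01). The highest values were those between the cultivars, at 0.199 for replicate 3 of 5 DPA, 0.197 for replicate 2 of 25 DPA and 0.188 for replicate 2 of 5 DPA. Whether replicates of the same number share a plant or batch is not given in the sources used here. The main fits did not pair them. With the replicate block the cultivar counts were 3, 25, 28, 38, 24, 77, 28 and 71 from 0 to 35 DPA, 24 and 1 for 20 against 15 DPA in PimaS-7 and 5917, 96 and 106 for 25 against 10 DPA, and 35 and 85 for the interactions.

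Of the 150 members, 128 were chosen again with a pseudocount of 0.1, 122 from CPM, 140 from the median of the replicates, 146 with a minimum of 5 FPKM, 140 without any 1 replicate number, 99 from PimaS-7 alone and 113 from 5917 alone. The filter on low counts left 99 members to test at 0 DPA and 136 at 35 DPA, and without it 145 and 150 were tested.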
